A study of Mus musculus with 8 samples.

Results

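The alpha and beta crystallins of the lens were followed in RNA of whole mouse eyes. Every probe set whose gene symbol is Cryaa, Cryab, Cryba1, Cryba2, Cryba4, Crybb1, Crybb2 or Crybb3 was taken, which gave 10 probe sets for 8 genes among the 22690 probe sets of the array, whose single symbols name 12393 genes. Each of the 10 carried a single gene symbol. Cryab had 3 probe sets and the other genes had 1 each. A filter on low mean signal kept 9 of the 10, so every gene remained in the tests.

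Crystallins are the bulk water-soluble proteins of the vertebrate lens, packed at high concentration in fiber cells, where their short-range order keeps the tissue transparent and raises its refractive index. The alpha crystallins belong to the small heat shock proteins and hold other proteins in solution, while the beta crystallins, acidic (A) or basic (B), form oligomers of paired Greek key domains. Fiber cells lose their organelles as they mature, so crystallins made early are kept for life, and mutations in most of these genes cause inherited cataract. Transcription of crystallin genes is driven by Pax6, large Maf proteins, Sox proteins and Prox1, with Hsf4 acting in the postnatal lens.

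The samples were 8 arrays in 4 groups of 2, numbered I and II: wild type at 5 days, KPAW at 5 days, wild type at 1 month and KPAW at 1 month. The wild type at 5 days was given as C57Bl6, the strain of the other groups was not given, and the labels do not expand KPAW, so its genotype is not described here. RNA was isolated with Trizol and cleaned on RNeasy columns. Whether I and II came from separate animals is not said, and p-values thus measure only the spread between these arrays, which may be technical. The whole eye was the labelled tissue, so fewer lens cells and less crystallin RNA per cell cannot be told apart.

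Promoter sequence was available for 7 of the 8 genes among 32851 mouse promoters of 300 bases each (RefSeq, GRCm38.p6). The 130 bases before the transcription start of 4 members are shown. Crybb2 is among them because it was called higher with age in both kinds of eye after scaling. The difference in age change between members was not tested, nor was any link between promoter letters and signals. Capitals mark TGCTGA, the core of the element bound by large Maf proteins, on either strand.
Cryaa, chr17:31677801-31677930, plus strand: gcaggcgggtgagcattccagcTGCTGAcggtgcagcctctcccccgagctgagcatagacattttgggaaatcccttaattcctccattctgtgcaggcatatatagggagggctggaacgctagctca
Cryba1, chr11:77725294-77725423, minus strand: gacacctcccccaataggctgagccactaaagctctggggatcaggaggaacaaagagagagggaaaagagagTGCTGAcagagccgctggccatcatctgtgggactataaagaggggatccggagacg
Crybb1, chr5:112255690-112255819, plus strand: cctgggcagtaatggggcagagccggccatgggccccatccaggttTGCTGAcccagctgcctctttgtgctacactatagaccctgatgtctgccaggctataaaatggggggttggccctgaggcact
Crybb2, chr5:113070118-113070247, minus strand: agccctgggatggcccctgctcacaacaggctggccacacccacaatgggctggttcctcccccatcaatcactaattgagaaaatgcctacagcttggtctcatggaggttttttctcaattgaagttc
TGCTGA, searched on both strands of the full 300 bases, was present in 6 of the 7 promoters and in 19.5% of all promoters. It started at position -108 from the transcription start in Cryaa, -57 in Cryba1 and -84 in Crybb1. The promoter without these letters was that of Crybb2. TGCTGANNNTCAGCA, the core and its inverted copy with NNN between them, was in 0 of the 7 and in 0.00304% of all promoters. Other spacings of the core and its inverted copy were not searched, so the presence of a full Maf element was not tested. The TATA box letters TATAAA, searched on the sense strand, were in 3 of 7 (Cryba1, Cryba2 and Crybb1) against 8.32% of all. They started at -23 in Cryba1, -30 in Crybb1 and -3 in Cryba2, where they run across the transcription start. ACAAAG, a core bound by Sox proteins, searched on both strands, was in 3 of 7 (Cryba1, Crybb1 and Crybb3) against 18.7%. GAANNTTC, letters of a heat shock element, searched on both strands, were in 0 of 7 against 7.86%. A match describes the letters in this window and not a bound site. On chromosome 5, Cryba4 and Crybb1 are direct neighbours among protein-coding genes, and so are Crybb2 and Crybb3, while Cryab on chromosome 9 lies beside Hspb2, another small heat shock protein gene.

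These crystallins were among the brightest features of every array. The brightest probe set of an array was a member in 5 of 8 arrays (Cryba2 in 3 and Crybb3 in 2) and one shared by Crygb and Crygc in the other 3. Of the 20 brightest probe sets of an array, 6 to 8 were members. Between 4 and 7 of the 10 member probe sets lay above 80% of their array's highest signal, a zone where a probe set may be saturated, and 7 to 19 probe sets in all lay there. The highest signal itself ran from 7.44 to 8.19 on the 5-day arrays and from 9.91 to 11.1 on the 1-month arrays. Signals are in the deposited arbitrary units and the tests compare them between arrays for 1 probe set at a time. Arrays also differed in brightness, and the factors that bring their trimmed means together ran from 0.711 in wild type at 1 month, array I, to 1.26 in wild type at 5 days, array II. Array I of KPAW at 1 month stood apart from the other 1-month arrays in other tissues, with a summed signal of 6 rod markers of 0.753 against 29.2 in array II and 35.5 and 32.6 in wild type, and of 6 epidermis markers of 15.8 against 6.84 in array II and 0.427 and 0.323 in wild type. Its summed member signal, 69.7, lay beside 70.9 in array II and 72.7 and 70.4 in wild type. Fold changes of the main model are on the scale log2(scaled signal + 0.0211).

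**Figure D1:**
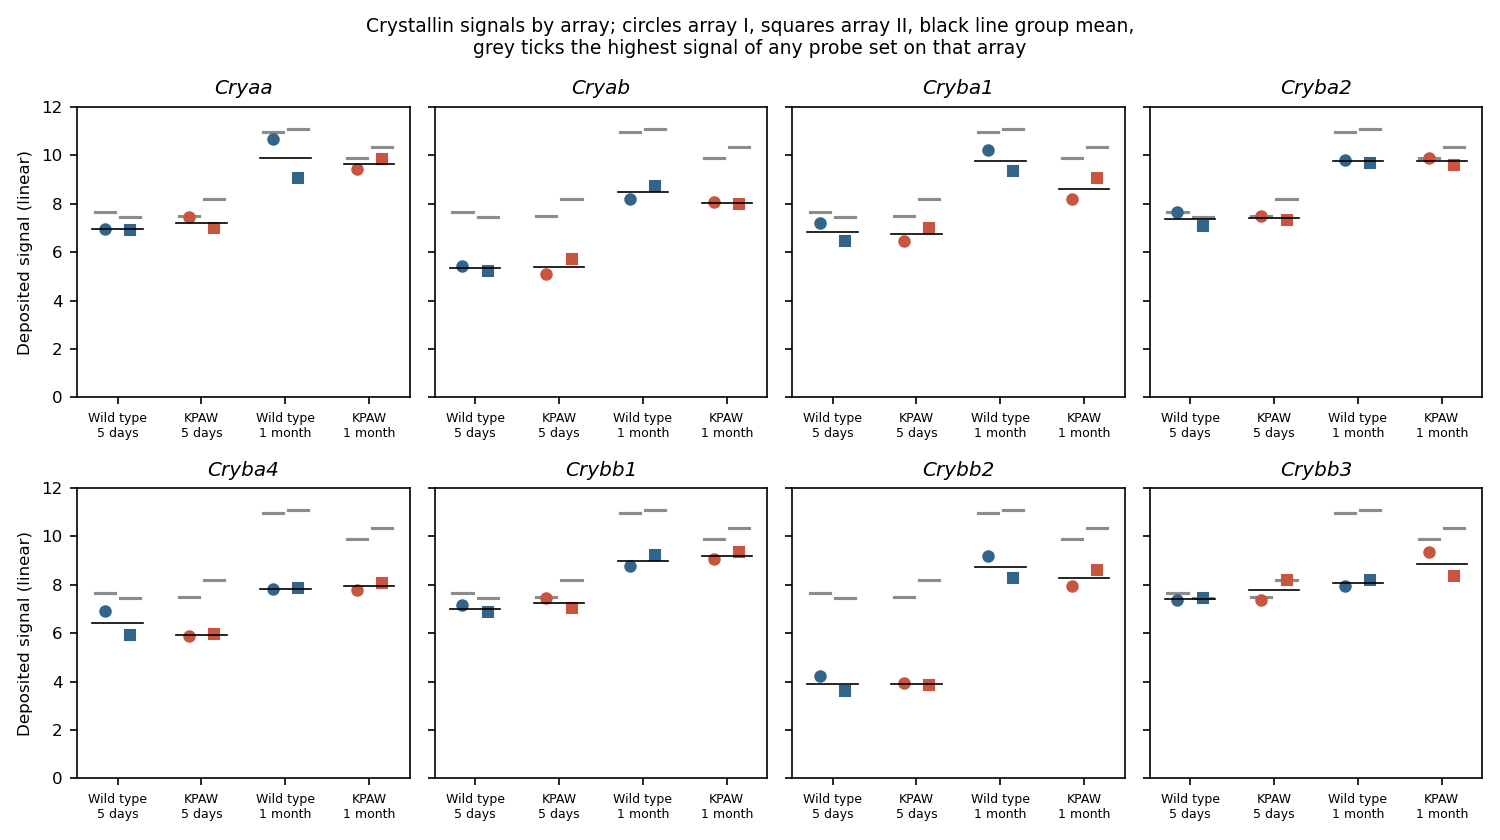
Deposited signal (arbitrary units) of the 8 genes, by their brightest probe set, on each of the 8 arrays, with circles for array I, squares for array II, black lines for group means and grey ticks for the highest signal of any probe set on that array. Crybb2 lies between 3.59 and 4.23 at 5 days and between 7.94 and 9.21 at 1 month, and the other genes lie nearer to the grey ticks at 5 days.

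With age, Crybb2 was called higher at 1 month in wild type and in KPAW eyes. In KPAW eyes 1 of the 2 bright Cryab probe sets was also called higher. No other member passed the test in the scaled model, and no member was called between KPAW and wild type at either age. In limma's test with Benjamini-Hochberg adjustment over 15838 probe sets, 1 of 9 member probe sets was called higher at 1 month in wild type, where 8.73% of all probe sets were called higher, 9.33% lower and 18.1% in either direction. The count of 1 of 9 in wild type is near the share called higher. That call was Crybb2, which held under 15 of 21 alternatives and was lost when any 1 wild-type array was left out. In KPAW, 2 of 9 were called higher, against 6.76% of all probe sets, and 7.51% were called lower and 14.3% in either direction. The median change over the 8 genes was -0.05 in wild type and 0.38 in KPAW on the log2 scale, while the median over all probe sets was -0.00 and -0.04.

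Cryaa, the alpha crystallin largely restricted to lens, is measured by probe set 1452486_a_at. Its deposited signals were 6.98 and 6.91 in wild type at 5 days, 7.45 and 7.002 in KPAW at 5 days, 10.7 and 9.06 in wild type at 1 month, and 9.44 and 9.84 in KPAW at 1 month. All 1-month arrays were above all 5-day arrays. At 5 days both KPAW arrays were above both wild-type arrays, and at 1 month they lay between them. After scaling, its change with age was -0.01 (SE 0.17, limma adjusted p = 0.984) in wild type and 0.39 (SE 0.17, adjusted p = 0.177) in KPAW. On the deposited values the wild-type change was 0.50 (adjusted p = 0.00741). Cryaa reached 81.5% to 99.7% of each array's highest signal, in the zone of possible saturation on all 8 arrays.

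Cryab, the alpha crystallin that is also made in muscle, heart and other tissues, has the probe sets 1416455_a_at, 1434369_a_at and 1435837_at. The brightest, 1416455_a_at, gave 5.43 and 5.24 in wild type at 5 days, 5.10 and 5.70 in KPAW at 5 days, 8.21 and 8.74 in wild type at 1 month, and 8.06 and 7.99 in KPAW at 1 month. The probe set 1434369_a_at gave 4.36 and 3.86, then 4.23 and 4.48, then 7.64 and 6.48, then 6.77 and 6.37, in the same order. In both, the ages did not overlap. The kinds of eye overlapped at each age, except that both KPAW arrays at 1 month were below both wild-type arrays for 1416455_a_at. The scaled change in KPAW was 0.56 (SE 0.15, limma adjusted p = 0.0438) for 1434369_a_at and 0.54 (SE 0.19, adjusted p = 0.0902) for 1416455_a_at, so only the dimmer passed, though the values are alike. The call of 1434369_a_at was lost (limma adjusted p of 0.054 to 0.218) without any 1 of the 4 wild-type arrays, array II of KPAW at 5 days or array I of KPAW at 1 month. Without array I or array II of wild type at 1 month, 1416455_a_at was called in its place (adjusted p = 0.048 and 0.0476). In wild type they were 0.27 (adjusted p = 0.25) and 0.16 (adjusted p = 0.592). On the deposited values both passed in both kinds of eye, with 0.67 (adjusted p = 0.0011) and 0.78 (adjusted p = 0.000613) in wild type and 0.57 (adjusted p = 0.00848) and 0.59 (adjusted p = 0.0149) in KPAW. The remaining probe set, 1435837_at, was near the bottom of the scale at 0.0142 to 0.0440, at most 0.403% of its array's highest signal, and was left out by the filter. The 3 probe sets of Cryab thus disagreed, with a signal near the array's lowest in 1 of them.

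Cryba1, which encodes both the beta-A3 and beta-A1 proteins from 1 transcript, is measured by 1450671_at. It gave 7.19 and 6.47 in wild type at 5 days, 6.46 and 7.004 in KPAW at 5 days, 10.2 and 9.37 in wild type at 1 month, and 8.19 and 9.05 in KPAW at 1 month. Both KPAW arrays at 1 month were below both wild-type arrays on the deposited scale. After scaling, KPAW minus wild type at 1 month was 0.10 (95% interval -0.25 to 0.44, limma adjusted p = 0.873), and on the deposited values it was -0.18, so the direction rests on the scaling. Its scaled change with age was 0.01 (adjusted p = 0.972) in wild type and 0.33 (adjusted p = 0.183) in KPAW, and as deposited the wild-type change was 0.52 (adjusted p = 0.00673).

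Cryba2, another acidic beta crystallin, is measured by 1419011_at, the brightest probe set of 3 arrays. It gave 7.66 and 7.06 in wild type at 5 days, 7.47 and 7.33 in KPAW at 5 days, 9.81 and 9.68 in wild type at 1 month, and 9.91 and 9.60 in KPAW at 1 month. The kinds of eye overlapped at both ages, and the ages were apart. Cryba2 stayed within 87.2% to 100% of the highest signal of every array, so its value followed the top of each array's scale. Its scaled change with age was -0.10 (limma adjusted p = 0.733) in wild type and 0.37 (adjusted p = 0.225) in KPAW.

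Cryba4, the acidic beta crystallin next to Crybb1, is measured by 1420686_at. It gave 6.91 and 5.94 in wild type at 5 days, 5.88 and 5.96 in KPAW at 5 days, 7.81 and 7.88 in wild type at 1 month, and 7.77 and 8.09 in KPAW at 1 month. As deposited, array I of wild type at 5 days was above the other 5-day arrays. After scaling, the wild-type group at 5 days was the tightest of the 4, at 7.52 ± 0.00917 (SD, n = 2), and KPAW at 5 days was at 6.09 ± 1.02. The change of its KPAW difference with age was 0.61 (SE 0.25, 95% interval 0.03 to 1.19), which did not pass limma's test after adjustment (adjusted p = 0.809).

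Crybb1, a basic beta crystallin that is a classical marker of fiber cell differentiation, is measured by 1418306_at. It gave 7.15 and 6.89 in wild type at 5 days, 7.45 and 7.04 in KPAW at 5 days, 8.76 and 9.24 in wild type at 1 month, and 9.08 and 9.34 in KPAW at 1 month. Ages were apart and kinds of eye overlapped. Its scaled change with age was -0.15 (limma adjusted p = 0.647) in wild type and 0.32 (adjusted p = 0.342) in KPAW. Its neighbour on the chromosome, Cryba4, gave -0.22 (adjusted p = 0.431) and 0.39 (adjusted p = 0.183).

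Crybb2, a basic beta crystallin of the mature lens whose mutation causes the cataract of the Philly mouse, is measured by 1420536_at. It gave 4.23 and 3.59 in wild type at 5 days, 3.96 and 3.84 in KPAW at 5 days, 9.21 and 8.28 in wild type at 1 month, and 7.94 and 8.62 in KPAW at 1 month. Every 1-month array was well above every 5-day array, and KPAW and wild type overlapped at each age. The deposited mean was 2.24 times higher at 1 month in wild type and 2.12 times in KPAW. Scaled signals were 4.57 ± 0.0445 (SD, n = 2) and 7.23 ± 0.963 in wild type at 5 days and 1 month, and 4.02 ± 0.796 and 8.28 ± 0.0354 in KPAW. The scaled change was 0.65 (SE 0.17, limma adjusted p = 0.0317) in wild type and 1.05 (SE 0.17, adjusted p = 0.00676) in KPAW. The test of the difference between these changes gave 0.40 (SE 0.23, adjusted p = 0.809). In wild type the call was lost when any 1 of the 4 wild-type arrays was left out, with adjusted p of 0.152 without array I and 0.153 without array II at 5 days, and 0.0589 without array I and 0.146 without array II at 1 month, while the change stayed between 0.52 and 0.79. In KPAW the call held under all 21 alternatives, with changes of 0.77 to 1.25, and without array I of KPAW at 1 month it was 1.05 (adjusted p = 0.0219).

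Crybb3, the basic beta crystallin adjacent to Crybb2, is measured by 1419005_at and moved least with age on the deposited scale. It gave 7.39 and 7.44 in wild type at 5 days, 7.37 and 8.19 in KPAW at 5 days, 7.96 and 8.18 in wild type at 1 month, and 9.35 and 8.36 in KPAW at 1 month. Array II of KPAW at 5 days was as high as the wild-type arrays at 1 month, and both KPAW arrays at 1 month were above them. Its deposited means at 1 month were 1.09 and 1.14 times those at 5 days, in wild type and KPAW. The scaled change in wild type was -0.39 (SE 0.19, limma adjusted p = 0.203) and in KPAW 0.16 (adjusted p = 0.628). The 2 adjacent genes of chromosome 5 gave different values: 0.65 for Crybb2 and -0.39 for Crybb3 in wild type, and the difference between them was not tested. On the 5-day arrays Crybb3 was at 96.5% to 100% of the highest signal, in the zone of possible saturation. Crybb2 was at 46.9% to 55.2% there. The part of this in the different values was not tested.

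The direction of the age change depended on the scaling for most members. On the deposited values all 9 probe sets had higher signals on both 1-month arrays than on both 5-day arrays, in wild type (where 59.0% of all probe sets did) and in KPAW (23.4%). The whole array moved in wild type: the median change of all probe sets was 0.44 there, and that of the 8 genes was 0.45. In KPAW the medians were -0.01 over all probe sets and 0.41 over the 8 genes. In limma on the deposited values, 6 of 9 member probe sets were called higher in wild type (20.4% of all probe sets, with 90.8% of all calls being higher calls, against 48.3% after scaling), and 3 of 9 in KPAW (5.51%, with 65% higher among calls against 47.4%). Beyond Cryaa, both Cryab probe sets, Cryba1 and Crybb2, the sixth call was Cryba2, at 0.41 (adjusted p = 0.0252), while Crybb1 (0.36, adjusted p = 0.0523), Cryba4 (0.29, adjusted p = 0.14) and Crybb3 (0.12, adjusted p = 0.523) did not pass. After scaling, the groups were apart and higher for 2 of 9 and lower for 1 of 9 in wild type (32.5% and 33.0% of all probe sets), and higher for 8 of 9 in KPAW (25.3%).

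**Figure D2:**
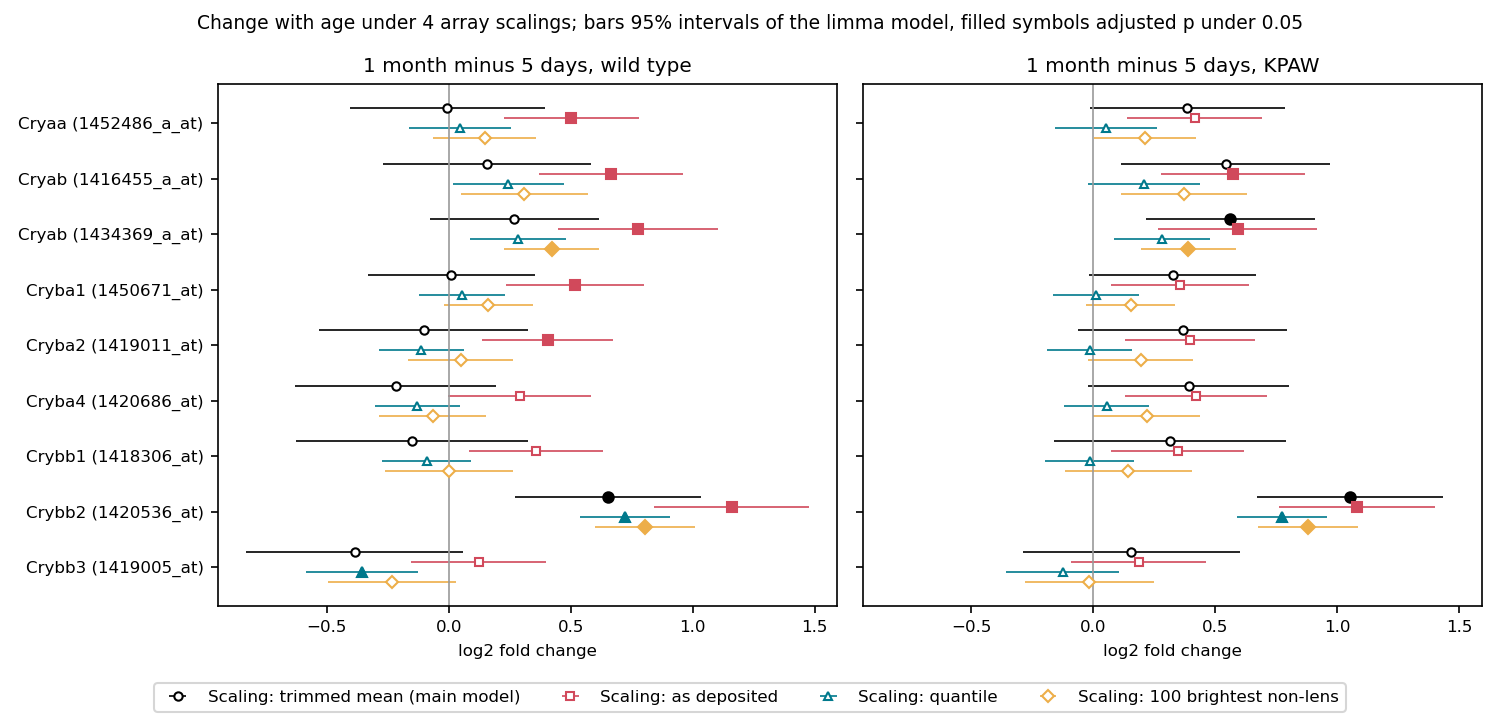
Log2 change from 5 days to 1 month for the 9 member probe sets under 4 scalings of the arrays, in wild type and in KPAW eyes, with bars for 95% intervals of the limma model and filled symbols for calls. Crybb2 is above 0 under every scaling drawn, whereas in wild type Cryaa, Cryba2, Cryba4, Crybb1 and Crybb3 lie below 0 after trimmed-mean scaling and above 0 on the deposited values.

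The other bright probe sets moved as well. The 100 brightest probe sets that are not lens genes had a median change of -0.26 in wild type and 0.12 in KPAW in the scaled model. When arrays were scaled on these 100 probe sets, Crybb2 gave 0.80 (limma adjusted p = 7e-04) in wild type and 0.88 (adjusted p = 0.000695) in KPAW, and Cryab 1434369_a_at gave 0.42 (adjusted p = 0.0115) and 0.39 (adjusted p = 0.0192). These were 2 of 9 in each kind of eye, against 10.2% and 4.58% of all probe sets called higher. With quantile normalization Crybb2 gave 0.72 in wild type and 0.77 in KPAW, 1 of 9 called higher in each (8.29% and 6.76% of all probe sets), and Crybb3, 1 of 9 called lower in wild type (10.1%), gave -0.36 (limma adjusted p = 0.0433). Crybb2 had a higher mean at 1 month in both kinds of eye under each of these scalings, and in wild type it missed the threshold under median scaling (0.56, adjusted p = 0.0626).

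A measure within each array needs no scaling. For each gene the log2 deposited signal was set against the median of the other 7 genes on the same array. Crybb2 lay between -0.94 and -0.76 on the 5-day arrays and between -0.19 and 0.07 on the 1-month arrays, a difference of 0.79. Cryab, by its brightest probe set, lay between -0.53 and -0.30 at 5 days and between -0.18 and -0.05 at 1 month, a difference of 0.26. These were the 2 of 8 genes whose 4 arrays of 1 age did not overlap with the 4 of the other. Of all probe sets, each set against the median of the 8 genes together, 23.3% did not overlap. The other differences ran from -0.24 for Crybb3 to 0.12 for Cryba1. Between KPAW and wild type, with both ages pooled, 0 of 8 genes were apart (0.297% of all probe sets). For Crybb2 and Cryab the pooled ages widen both ranges. Only a difference larger than that with age could have set the kinds of eye apart there. The count of 2 of 8 with age is near the share of all probe sets. With most of the genes in the zone of possible saturation, the measure describes signals on the arrays and not RNA levels.

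**Figure D3:**
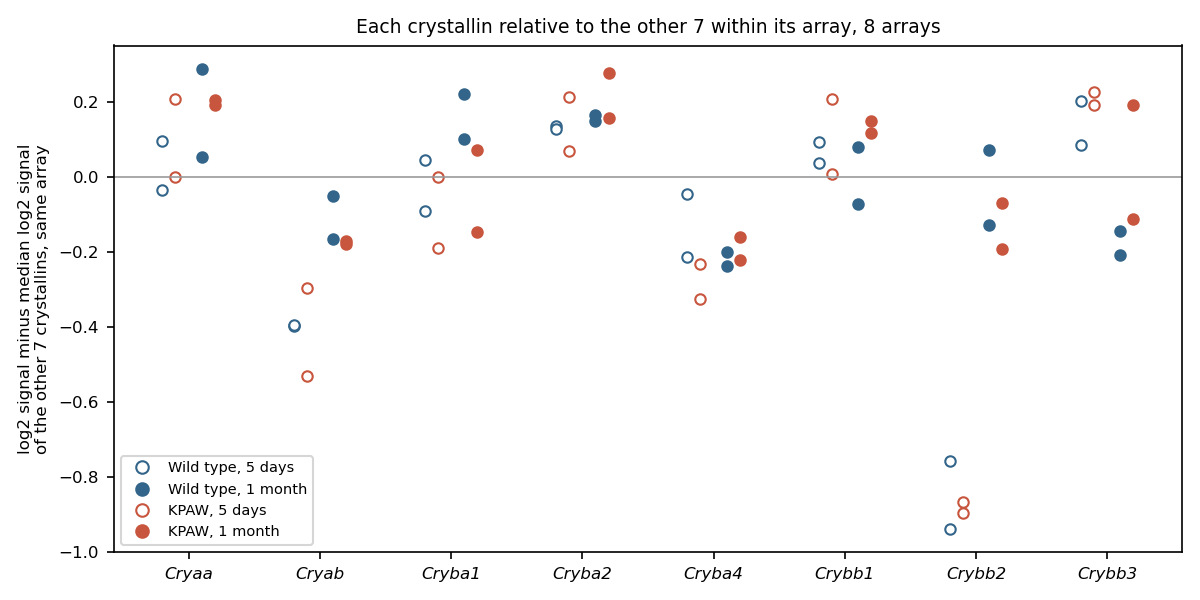
Log2 deposited signal of each gene minus the median of the other 7 genes of the same array, for the 8 arrays, with open circles for 5 days and filled circles for 1 month. For Crybb2 the 5-day arrays lie at -0.94 to -0.76 and the 1-month arrays at -0.19 to 0.07, and for the remaining genes except Cryab the ages overlap.

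Folds with age were set beside the place of each probe set on the scale at 5 days. At 5 days Crybb2 was at 50.8% of the highest signal on average and its mean over both kinds of eye was 2.18 times higher at 1 month. Cryab 1434369_a_at, at 55.0%, was 1.61 times higher, and Cryab 1416455_a_at, at 69.8%, was 1.54 times higher. Crybb3 was at 98.8% at 5 days and 1.11 times higher at 1 month. Over the 9 probe sets, Pearson's r between the deposited (linear) signal at 5 days and the log2 fold was -0.884, and Spearman's rho was -0.85. These are a description only, since the 5-day signal enters both axes and the probe sets share the same arrays. The part of a limited upper range in the smaller folds was not tested.

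**Figure D4:**
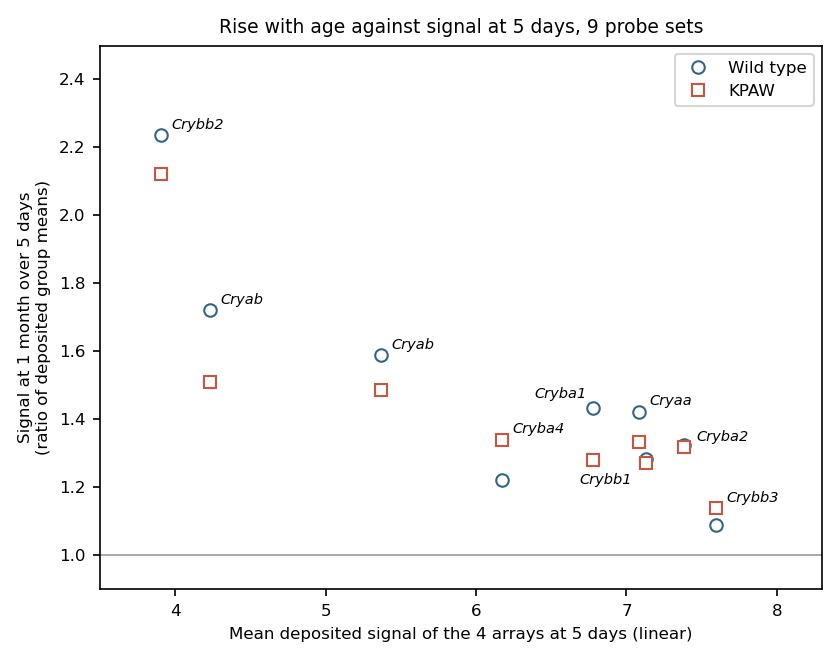
Mean deposited signal of the 4 arrays at 5 days (horizontal, arbitrary units) against the ratio of deposited group means, 1 month over 5 days (vertical), for the 9 member probe sets in wild type (circles) and KPAW (squares). Crybb2 starts at 3.90 and lies at 2.24 and 2.12, whereas Crybb3 starts at 7.60 and lies at 1.09 and 1.14.

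Between KPAW and wild type the 8 genes gave no call at either age. At 1 month 0 of 9 probe sets were called by limma (0.0253% of all probe sets, with 1100 at an unadjusted p under 0.05, and no member among these). Differences ran from 0.10 for Cryba1 to 0.41 for Crybb3, with a lowest adjusted p of 0.675, and 0 of 9 were called without array I of KPAW. The 95% intervals reached from -0.25 (Cryba1) to 0.85 (Crybb3). At 5 days 0 of 9 were called (0.00% of all probe sets, with 378 at an unadjusted p under 0.05, again no member). Differences ran from -0.31 for Cryba4 to -0.11 for Cryab 1434369_a_at, all with an adjusted p of 1, and the intervals reached from -0.73 (Cryba4) to 0.32 (Crybb1). The medians over the 8 genes, 0.27 at 1 month and -0.19 at 5 days, lay beside 0.18 and -0.18 for the 100 brightest probe sets that are not lens genes. Scaled signals of KPAW and wild type were apart and higher in KPAW for 5 of 9 at 1 month (17.0% of all probe sets) and lower for 3 of 9 at 5 days (16.6%). Deposited signals at 1 month were apart and higher for 1 of 9, Crybb3 (2.95%), and lower for 2 of 9, Cryba1 and Cryab 1416455_a_at (39.2%), and at 5 days higher for 1 of 9, Cryaa (28.0%). On the deposited values the medians of the 8 genes were -0.01 and 0.01, while all probe sets had medians of -0.26 and 0.18. The change of the difference with age was called for 0 of 9 (0.00% of all probe sets), with values of 0.29 to 0.61 and with 932 probe sets at an unadjusted p under 0.05, Cryba4 being the member among them. The widest of these intervals include differences of the size that Crybb2 showed with age in wild type, so they do not show that the kinds of eye are alike.

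**Figure D5:**
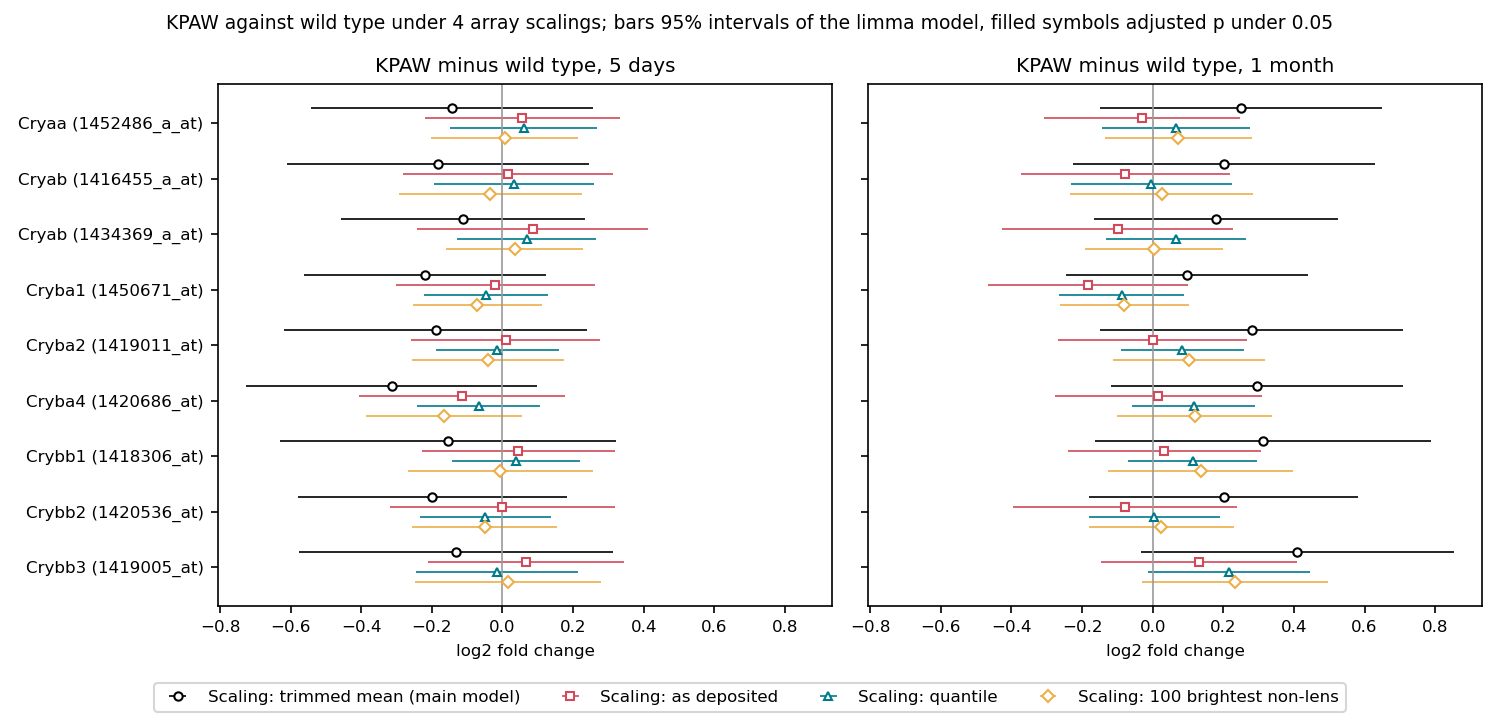
Log2 difference between KPAW and wild type at 5 days and at 1 month for the 9 member probe sets under 4 scalings, with bars for 95% intervals of the limma model. At 1 month the 8 genes lie between 0.10 and 0.41 after trimmed-mean scaling and between -0.18 and 0.13 on the deposited values, and none is called.

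Replicates of a group lay closer together before scaling than after for these bright probe sets. The median difference between arrays I and II over the members was 0.084, 0.085, 0.083 and 0.058 on the log2 scale as deposited, in wild type and KPAW at 5 days and wild type and KPAW at 1 month. After scaling it was 0.131, 0.366, 0.421 and 0.078. The scaling widened the replicate spread most in KPAW at 5 days and wild type at 1 month.

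The genes whose profile over the 8 arrays was most like that of a member are given as a description, since all values share the arrays and their scaling. For Crybb2 they were Clu (r = 0.990), which encodes the secreted chaperone clusterin, Cmah (0.988) and Car14 (0.988), a membrane carbonic anhydrase. For Cryab they were Fabp5 (0.984), a fatty acid binding protein, Crygs (0.969), the gamma-S crystallin of the adult lens, and Hexa (0.950). For Cryaa they were Crygb (0.964), Crygd (0.964) and Bcs1l (0.939). Mrps25, of the mitochondrial ribosome, was nearest to Cryba2 (0.977) and to Crybb1 (0.990). Tpt1 and Eef1a1, bright genes of growth and protein synthesis, came next for both and were among the nearest to Cryba4, with Pcnx (0.958), at 0.930 to 0.973. Cryba1 was nearest to Pcnx (0.947), Crygs (0.942) and Gstm2 (0.933). Crybb3 was nearest to Trp53i13 (0.972), Galr1 (0.932) and Crygf (0.927). Among the members the correlation ran from 0.022 for Crybb2 with Crybb3 to 0.975 for Cryba2 with Crybb1.

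The other genes of the crystallin system were counted in lists, beside which 8.73% of all probe sets were called higher and 9.33% lower with age in wild type, and 6.76% and 7.51% in KPAW. Of 8 gamma and other crystallins tested, 1 was called higher and 2 lower at 1 month in wild type, and 0 and 1 in KPAW. Crygn, a crystallin between the beta and gamma families, had deposited signals of 4.72, 4.12, 4.06 and 4.50 on the 5-day arrays and 0.859, 1.04, 1.13 and 0.789 on the 1-month arrays, and it fell by 2.70 in wild type (limma adjusted p = 0.000915) and fell by 2.19 in KPAW (adjusted p = 0.00271). Cryga fell by 0.66 in wild type (-0.15 and not called as deposited), and Crybg3 rose by 0.73 (1.15 as deposited). Crybg3 was dim, with deposited signals of 0.0627 to 0.179, at most 1.64% of the array's highest signal. Crygn was called lower under all 21 alternatives in both kinds of eye. Of 5 other small heat shock proteins, Hspb1 rose by 1.20 in KPAW (limma adjusted p = 0.00569) and Hspb3, known from muscle, fell by 1.27 in wild type. Hspb3 was dim too, with deposited signals of 0.0465 to 0.148, at most 1.81% of the array's highest signal. In wild type Hspb1 gave 0.52, not called, and it was called under 6 of 21 alternatives, with values up to 1.02. Hspb2, the neighbour of Cryab, gave -0.19 and 0.25 with no call. Of 4 genes named as enzyme crystallins, Crym, a thyroid hormone binding protein, fell by 1.56 in wild type and fell by 1.62 in KPAW.

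Of 16 lens regulators tested, 0 were called higher and 4 lower at 1 month in wild type, and 0 and 2 in KPAW. Cdkn1c, the cell cycle inhibitor of early fiber cells, fell by 2.16 in wild type and fell by 1.85 in KPAW, and Meis2 fell by 0.78 in both. Hsf4 fell by 0.81 and Pitx3 fell by 0.50 in wild type. As deposited these wild-type changes were smaller and not called, at -0.30 for Meis2, -0.35 for Hsf4 and -0.06 for Pitx3. Pax6 was called in none of the 4 contrasts, at 0.13 with age in wild type, -0.01 with age in KPAW, 0.23 for KPAW minus wild type at 5 days and 0.09 at 1 month, and its sign depended on the scaling or on single arrays. Of 9 genes of the fiber membrane, cytoskeleton and enzymes, 0 were higher and 2 lower in wild type, the gap junction gene Gja3 at -0.81 and the cadherin Cdh2 at -0.78, which as deposited were -0.34 and -0.29 and not called. In KPAW 1 was higher, Epha2 at 1.24, and 1 lower, Cdh2 at -0.83. In wild type Epha2 gave 0.84, not called, and it was called under 6 of 21 alternatives, with values up to 1.29. Under all 21 alternatives the calls of Crygn, Cdkn1c and Crym in both kinds of eye and of Hspb1 in KPAW held, and the other calls named were lost under at least 1 array left out. None of these 5 lists had a call between KPAW and wild type at either age.

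Markers of other tissues in the eye were counted against the same shares of all probe sets. Called higher and lower at 1 month were 6 and 0 of 7 cornea epithelium markers in wild type and 4 and 0 in KPAW, 1 and 0 of 6 rod markers in wild type and 0 and 0 in KPAW, and 3 and 1 of 6 Mueller glia and astrocyte markers in both. For 8 skeletal muscle markers the counts were 1 and 1 in wild type and 2 and 0 in KPAW, for 6 pigment cell markers 2 and 2, then 3 and 0, and for 6 epidermis markers 0 and 0, then 1 and 0. The summed deposited signal of the cornea list, which holds Clu, was 4.30 to 9.50 at 5 days and 17.8 to 36.2 at 1 month. The part of these tissues in the crystallin values was not tested. The summed rod signal was 5.73 to 7.45 at 5 days, and the summed epidermis signal was 0.267 to 3.63. At 1 month the summed rod signal was 35.5 and 32.6 in wild type and 0.753 and 29.2 in KPAW. The model shares 1 estimate of spread over all groups, these 2 KPAW arrays included. The few rod calls thus do not show that rod signals changed little with age. Xist, the female-specific RNA, was 2.71 and 2.88 in wild type at 5 days and 0.115 and 0.0548 at 1 month, so in wild type sex and age cannot be told apart. In KPAW at 5 days Xist was 0.0708 in array I and 3.48 in array II, where Crybb2 was 3.96 and 3.84. In KPAW at 1 month Xist was 0.0823 and 0.0649, so it was low on every 1-month array. At 5 days it was low only on array I of KPAW, so KPAW and wild type were unlike in Xist there too.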

How the data were processed

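RNA of mouse eyes was hybridised to 8 Affymetrix arrays, 2 in each of 4 groups taken from the sample titles. The deposited table holds a signal for each probe set on each array; the software and normalization behind it are not given in the sources used here, and the signals were treated as linear. All sample columns were used (0 left unused). The number of arrays, not depth, limits precision.

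After leaving out 64 control probe sets of 22690, arrays were brought to a common trimmed mean (2% off each end; the target was the median over the 8 arrays) and taken as log2(signal + 0.0211), the 20th percentile of positive values. Probe sets above the 30th percentile of mean signal were kept (15838). A limma 3.58.1 model (R 4.3.3) with a mean per group and a variance trend, 4 residual degrees of freedom, was fitted to all 8 arrays; calls used a Benjamini-Hochberg adjusted p under 0.05 per contrast. Standard errors and intervals are the model's. The code was tested on simulated data. Tables and plots used Python 3.11.15, pandas 2.3.3, scipy 1.17.1 and matplotlib 3.10.9.

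The members and the 11 gene lists were chosen with earlier results of these data known. The rule for named genes took all 8 members, the 3 genes nearest to each by correlation, list members with the largest called changes (up to 4), and Pax6; Xist and the brightest genes were added after their values were seen. A gene with several probe sets was represented by the brightest. Of the 22626 probe sets analysed, 20380 had 1 gene symbol, 691 several and 1555 none, in the platform annotation. The numbers I and II were not used to pair the arrays in the main model, and whether they pair them is not said. Correlations of deviations between groups ran from -0.0174 to 0.309. Alternatives were other scalings, filters and models, leaving out each array, and, chosen after seeing the data, scaling on the 100 brightest probe sets outside the lens lists and the measure within each array.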

Additional observations from a re-analysis of the deposited data

How the results depend on the processing

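Counts of member probe sets called higher or lower by limma depended on the setting. With age in wild type the 1 call became 2 with quantile normalization, 2 with scaling on the 100 brightest probe sets outside the lens lists, 6 as deposited, and 0 with median scaling or no filter, and ran from 0 to 1 with 1 array left out (0 without any 1 of the 4 wild-type arrays). With age in KPAW the 2 calls became 1 with quantile normalization, median scaling, no filter, no variance trend, the groups of the contrast alone, 1 probe set per gene or array weights, 3 as deposited, and ran from 1 to 2 with 1 array left out (the 2 without array I or II of wild type at 1 month being Crybb2 and Cryab 1416455_a_at in place of 1434369_a_at). The other 3 contrasts had 0 member calls in every setting. With the replicate block the counts were 1 with age in wild type and 1 in KPAW (lowest limma adjusted p = 0.049 and 0.0125), and 0 elsewhere. Whether the numbers pair the arrays is not said.

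Of 168 member values per contrast, the sign turned in 18 with age in wild type, 4 with age in KPAW, 15 for KPAW minus wild type at 5 days, 9 at 1 month and 9 for the change of that difference. The cause was not tested. With age in wild type the deposited values gave 0.50 for Cryaa, 0.41 for Cryba2, 0.29 for Cryba4, 0.36 for Crybb1 and 0.12 for Crybb3. Quantile normalization gave 0.04 for Cryaa, median scaling -0.08 for Cryba1, and the 100 brightest 0.15 for Cryaa, 0.05 for Cryba2 and 0.00 for Crybb1. With age in KPAW quantile normalization gave -0.01 for Cryba2, -0.01 for Crybb1 and -0.13 for Crybb3, and the 100 brightest -0.02 for Crybb3. Deposited values gave 0.01 for Cryga and 0.02 for Pax6, and the 100 brightest -0.07 for Hsf4.

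For KPAW minus wild type at 1 month the deposited values gave -0.03 for Cryaa, -0.08 for Cryab, -0.18 for Cryba1, -0.08 for Crybb2 and -0.18 for Pax6. Quantile normalization gave 0.00 for Cryab and -0.09 for Cryba1, and the 100 brightest -0.08 for Cryba1 and -0.08 for Pax6. At 5 days the deposited values gave 0.06 for Cryaa, 0.02 for Cryab, 0.01 for Cryba2, 0.05 for Crybb1, 0.00 for Crybb2 and 0.07 for Crybb3, quantile normalization 0.06 for Cryaa, 0.03 for Cryab and 0.04 for Crybb1, and the 100 brightest 0.01 for Cryaa and 0.02 for Crybb3. For the change of the difference the deposited values gave -0.09 for Cryaa, -0.09 for Cryab, -0.16 for Cryba1, -0.01 for Cryba2, -0.01 for Crybb1 and -0.08 for Crybb2, quantile normalization -0.04 for Cryab and Cryba1, and the 100 brightest -0.01 for Cryba1.

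With 1 array left out, the age change in wild type ran from -0.11 to 0.09 for Cryaa, -0.10 to 0.41 for Cryab, -0.14 to 0.16 for Cryba1, -0.31 to 0.10 for Cryba2, -0.44 to 0.00 for Cryba4, -0.40 to 0.10 for Crybb1 and -0.11 to 0.36 for Pax6. In KPAW it ran from -0.13 to 0.09 for Cryga and -0.07 to 0.05 for Pax6. KPAW minus wild type ran at 5 days from -0.37 to 0.08 for Cryaa, -0.38 to 0.00 for Cryba2, -0.37 to 0.07 for Crybb1, -0.40 to 0.00 for Crybb2 and 0.00 to 0.47 for Pax6. At 1 month it ran from -0.06 to 0.46 for Cryab, -0.05 to 0.25 for Cryba1 and -0.13 to 0.32 for Pax6. Crybb2 relative to the other 7 crystallins kept 0.73 to 0.82, and 0.73 against their mean.

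Limits: groups of 2 arrays, signals near the top of the scale for most members, and a scaling whose factors differ by group. Crybb2 with age in KPAW was called in every setting.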
